A study of Mus musculus with 27 samples.

Results

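Among skin and hair follicle cells of 2 wild-type mice in full anagen (AnaVI, postnatal day 32), 1200 cells were chosen as non-cycling hair matrix cells. A member carried at least 3 UMIs (unique molecular identifiers, each standing for 1 captured transcript) of the matrix genes Lef1, Msx2, Dlx3 and Hoxc13 together and at least 2 UMIs of the epithelial genes Epcam, Cdh1, Perp and Dsp. Collagens and decorin (Col1a1, Col1a2, Col3a1, Dcn) had to stay under 0.5% of its UMIs, inner root sheath (IRS) keratins under 0.3% and hair shaft (HS) keratins under 0.2%, and it could hold at most 1 UMI of Top2a, Cenpf and Ube2c together and at most 1 of Mcm3, Mcm4, Mcm5 and Hells together. Of 28373 filtered cells, 4.23% met the rule (exact 95% binomial interval 4.0% to 4.47%), namely 646 of 14458 in mouse 1 and 554 of 13915 in mouse 2. They made up 22.0% of the 5458 cells that passed the matrix, epithelial and keratin limits at any cycle stage. Intervals given here cover counting error only.

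The study asked how retinoids and niche signals steer hair follicle stem cells (HFSCs) between stemness, wound repair and hair lineages, and the anagen skin served as its in vivo reference. Back skin was digested and sorted for CD45-CD31-CD140a-CD117- cells, and each mouse gave 1 10x Genomics 3' library. The sort is directed against leukocytes, endothelium, fibroblasts and melanocytes. Even so, 5268 of the 28373 filtered cells were rich in collagen transcripts and held no UMI of the 4 epithelial genes. The 2 skin samples carried no treatment and no transgene, and CD34+ HFSCs from the same animals were cultured in parallel. Every comparison therefore set populations of the same 2 mice against each other. The main test had no term for the mouse and did not pair them. Its p-values rest on the spread between the 2 animals within the 6 populations fitted together. A test with the mouse as a block, which does pair them, is given beside it.

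The hair matrix is the pool of epithelial progenitors that surrounds the dermal papilla at the base of the growing follicle. Its cells divide rapidly, then leave the cycle as they move up and commit to the concentric layers of the IRS and the cortex, cuticle and medulla of the HS. LEF1 is a WNT effector of the matrix and precortex, MSX2, DLX3 and HOXC13 are transcription factors of the matrix and early shaft, and KIT ligand (Kitl) from follicular epithelium acts on melanocytes, which hand pigment to the forming shaft.

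Comparison populations were drawn from the same libraries. G1/S matrix cells (617) and G2/M matrix cells (3641) passed the same matrix limits but held 2 or more UMIs of the Mcm and Hells sum or of the Top2a, Cenpf and Ube2c sum. Outer root sheath (ORS) cells (134) held at most 1 UMI of the 4 matrix genes, with Krt5 and Krt14 at 1% or more of UMIs and ORS factors present, and collagen-rich cells (5268) served as a non-epithelial background. Members were shallower than cycling matrix cells, with median UMIs of 8028 in mouse 1 and 10389.5 in mouse 2 against 12664 and 14585 in G2/M cells. Scrublet, a doublet caller, marked 39 members and 5.07% of all filtered cells. The libraries shared 62 cell barcodes, 1 of them among members.

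The limit on the matrix genes cut through a continuous range. With every other limit met, 425 cells held 2 UMIs of the 4 genes, just outside, and 233 held 3, just inside. Among members 436 held 3 to 5 UMIs, 174 held 6 to 9 and 590 held 10 or more. All 4 matrix genes were seen in 366 members and a single one in 137. The cycle limits were as soft, since 464 members held 1 UMI of Top2a, Cenpf and Ube2c while 220 cells just outside held 2. The proliferation marker Mki67, outside the rule, stood at 51.1 and 45.5 CPM (UMIs of a gene per 1000000 UMIs of the summed cells of a mouse) in members of mouse 1 and mouse 2, against 125 and 137 CPM in G1/S cells, 482 and 509 CPM in G2/M cells and 31.0 and 34.7 CPM in ORS cells.

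Counts of the matrix genes differed widely between clusters of members. Clustering of the 1200 members gave 14 clusters, and 6 of them, with 703 cells (58.6%), had a median of 15 to 22 UMIs of the 4 matrix genes. The other 8 clusters, with 497 cells (41.4%), had a median of 3 to 7.5. The split was uneven between animals, with 67.5% of members of mouse 1 but 48.2% of mouse 2 in the 6 matrix-rich clusters. To describe this, a matrix core was defined after the data were seen, as members with 10 or more UMIs of the 4 genes and under 0.1% of UMIs from each of a dermal papilla and a melanocyte gene list. The core held 549 members (315 and 234). The matrix-rich clusters are those with a core share over 50%, and the core is set by the same 4 genes. Its share, 61.2% to 86.7% of each matrix-rich cluster and at most 11.1% of each other cluster, thus describes that choice. It is no separate support for the split.

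**Figure D1:**
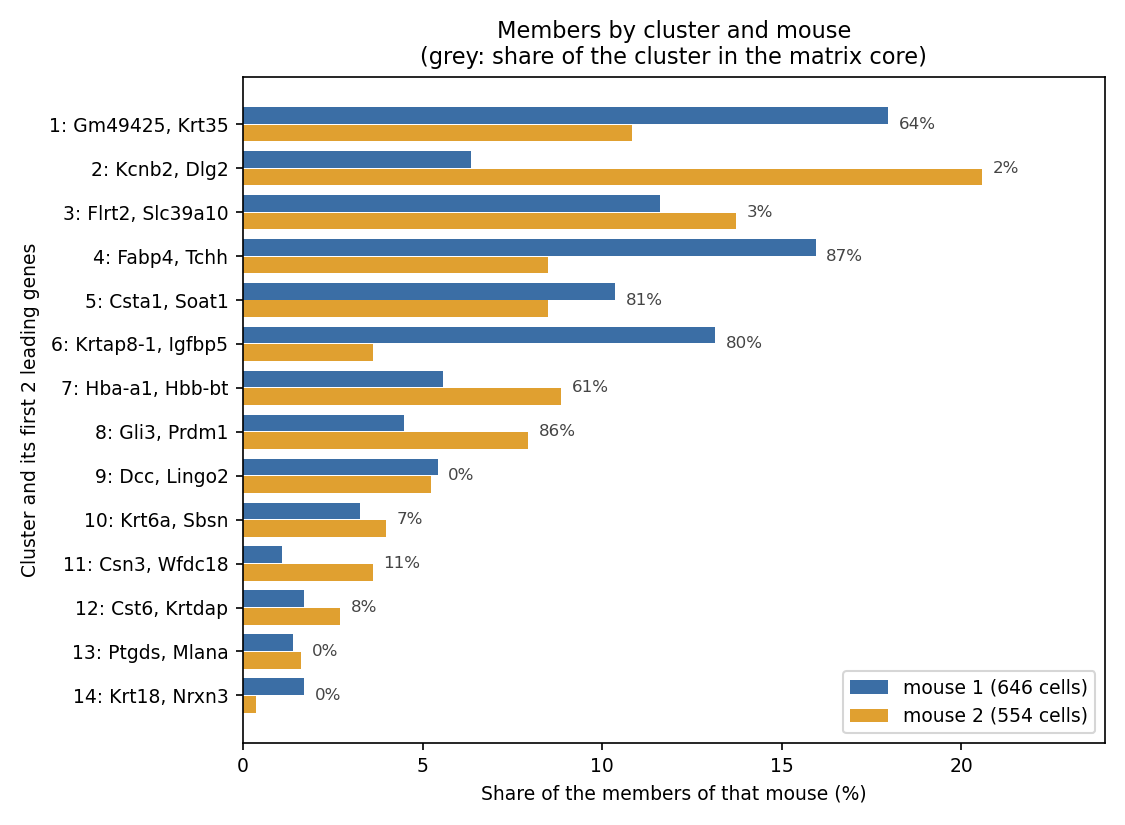
Share (%) of each mouse's members in each of the 14 clusters, with the grey numbers giving the share of the cluster that belongs to the matrix core. Clusters 1, 4, 5, 6, 7 and 8 lie at 61.2% core or more and the others at or under 11.1%, and cluster 2 held 20.6% of members of mouse 2 but 6.35% of mouse 1.

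Of the matrix-rich clusters 4, with 442 cells (284 and 158), carried Kitl at 1000 CPM or more in both mice. All 4 stayed unnamed by the marker lists. Their leading genes from lists of hair layers were Tchh in cluster 4, Foxq1 in cluster 5 and Krtap8-1, S100a3 and Krt26 in cluster 6. The leading genes of a cluster, which the clustering itself used, are given as description. Cluster 4 (150 cells) was led by Fabp4, a fatty acid binding protein, by Tchh (trichohyalin, of IRS and medulla), at 3535 and 3440.3 CPM in mouse 1 and mouse 2, and by Aldh1a3, a retinoic acid synthesising enzyme, at 1416 and 1854 CPM. The companion layer and medulla keratin Krt75 stood at 698 and 695 CPM there. Cluster 5 (114 cells) had the cystatin Csta1 at 900 and 836 CPM, the sterol acyltransferase Soat1 at 862 and 820 CPM, secretin (Sct) at 557 and 646 CPM and Kitl at 3221 and 3107 CPM. The forkhead factor Foxq1, which is needed for the medulla, was at 1051 and 751 CPM in these cells.

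Cluster 6 (105 cells, of which 85 came from mouse 1) was led by the keratin-associated gene Krtap8-1 at 1119.6 and 1523 CPM and by the cuticle calcium-binding gene S100a3 at 824 and 909 CPM, whereas Tchh was at 191 and 203 CPM. Cluster 8 (73 cells) combined the hedgehog effector Gli3, at 6002 and 6629 CPM, with the repressor Prdm1 (Blimp1), at 904 and 705 CPM, and with the highest Kitl of mouse 2 among the 14 clusters, at 3906 CPM. Its mitochondrial share was 7.12% and its leading genes had a median genomic span of 224676 bases, against 29298 bases for all genes over 10 CPM in members; whether RNA quality has a part in this cluster was not tested.

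The remaining matrix-rich clusters had little Kitl. Cluster 1 (176 cells) had Kitl at 45.6 and 175 CPM, and was led by the precortex keratin Krt35, which the rule limits, with the medulla factor Sox21 at 137 and 124 CPM and Notch1 at 549 and 559 CPM. Shh, the hedgehog ligand made on one side of the matrix, was at 59.0 and 72.1 CPM there, and Edar, the ectodysplasin receptor, at 35.2 and 50.04 CPM. Cluster 7 (85 cells) had Notch1 at 774 and 1023 CPM and a mitochondrial share of 7.35%. Its leading genes had a median genomic span of 165420 bases, and whether RNA quality has a part in this cluster was not tested either. Hemoglobin led its gene list in 1 mouse alone, with Hba-a1 at 6905 CPM in mouse 1 and 26.4 CPM in mouse 2.

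**Figure D2:**
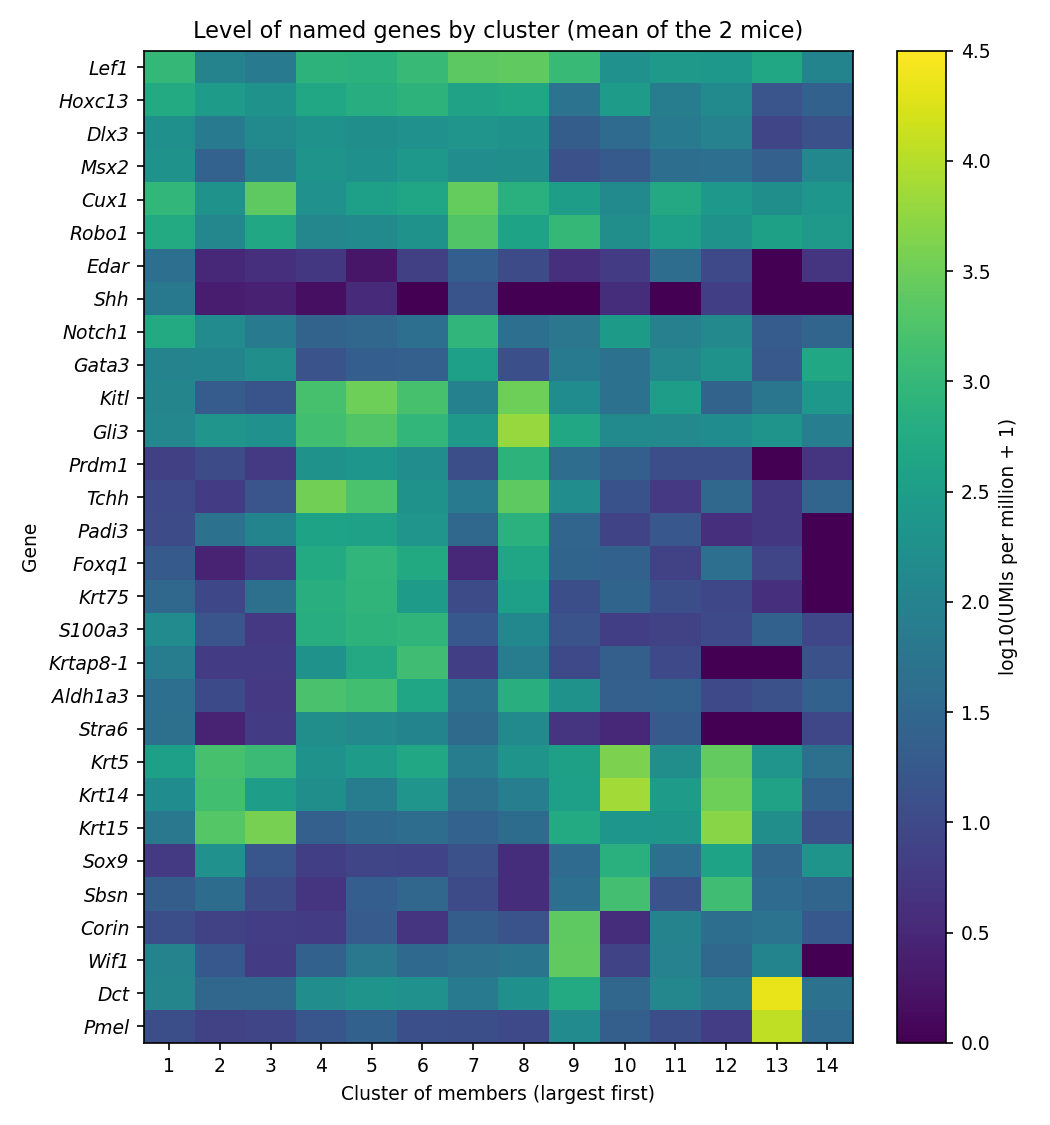
Mean level of 30 genes in the 14 clusters of members, as log10 of CPM plus 1. Brighter colours are higher levels: Kitl is bright in clusters 4, 5, 6 and 8, Krt15 in clusters 2, 3 and 12, Corin in cluster 9 and Dct in cluster 13.

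Of the other 8 clusters, 4 were led by marker genes of other cell types and 4 stayed unnamed. Cluster 3 (151 cells) combined the stem cell and ORS keratin Krt15, at 4342 and 3100 CPM, with the guidance ligand Slit3 and the catagen-promoting growth factor Fgf5, while Lef1 was at 94.4 and 43.2 CPM. Cluster 2 (155 cells, 114 of them from mouse 2) had Krt15 at 1915 and 2146 CPM and Krt14 at 1604 and 1173 CPM. No gene of a marker list led these 2 clusters. Cluster 9 (64 cells) was dermal papilla-like, with the papilla protease Corin at 2328 and 2544 CPM, and 14 of its cells were called doublets. Cluster 10 (43 cells) was ORS-like, cluster 12 (26 cells) suprabasal epidermis-like, and cluster 13 (18 cells) melanocyte-like, with the melanogenic enzyme Dct at 21100 and 23696 CPM. Cluster 11 (27 cells), led by the milk protein genes Csn3 and Lalba in cells of mouse 2, and cluster 14 (13 cells, 11 of them from mouse 1), led by Krt18, Prlr and Areg, were unnamed too. In a sum over such a mixture, the share of a cell type and the level per cell cannot be told apart.

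Of the 4 marker genes given for this population, 3 lie outside the rule. When tested against G2/M matrix cells, as set out below, 0 of these were called higher and 2 lower (Edar and Robo1). Over all genes tested, 4.96% were called higher and 4.98% lower. Lef1 (chr3:131110471-131224356, plus strand, GRCm38), a gene of the rule, stood at 765 CPM in members of mouse 1 and 762 in mouse 2, against 618 and 676 CPM in G2/M cells and 22.9 and 26.0 CPM in ORS cells. Cux1 (chr5:136248135-136567490, minus strand), a homeobox factor of the bulb, was at 700.1 and 883 CPM in members but 1057 and 1730 CPM in G2/M cells. Robo1 (chr16:72308306-73046095, plus strand), a receptor for Slit ligands, was at 359 and 474 CPM in members against 939 and 1417 CPM in G2/M cells. Edar (chr10:58600789-58675654, minus strand) was at 10.1 and 12.6 CPM against 29.4 and 52.3 CPM. Both receptors were thus lower in the summed members than in G2/M matrix cells in each mouse. Robo1 was not low in every cluster. In the matrix-rich cluster 7 it stood at 1976 CPM over the cells of both mice, against 332 CPM in the other members. The G2/M group held S phase transcripts as well, with 22 S phase genes at 2193 and 2156 CPM, against 1879 and 1756 CPM in G1/S cells.

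In the edgeR quasi-likelihood fit of summed counts with Benjamini-Hochberg (BH) adjustment, a call needed an adjusted p below 0.01 together with a change of more than 1 on the log2 scale in either direction. Edar fell by 1.87 (SE 0.30, edgeR adjusted p = 0.000734) and Robo1 by 1.53 (SE 0.26, adjusted p = 0.000806) on the log2 scale against G2/M cells, and Cux1 (-0.85, adjusted p = 0.0678) was not called. Against G1/S cells Robo1 fell by 1.57 (adjusted p = 0.00187), while Edar (-1.47, adjusted p = 0.0127) was not called. Edar did pass with the mouse as a block (adjusted p = 3.53e-05), by DESeq2 (-1.41, adjusted p = 0.00768) and in the core (-1.97, adjusted p = 0.00297), but not after thinning (-0.88, adjusted p = 0.555), without doublets (adjusted p = 0.0172), without mouse 1 (adjusted p = 0.0643) or without mouse 2 (adjusted p = 0.0679). Leaving out the members of 1 mouse leaves 1 sum of members, which is then assumed to vary like the other populations, here and in every such value. Robo1 lost the G1/S call without either mouse (-1.40 without mouse 1 and -1.69 without mouse 2). That call was also lost after thinning (-1.22, edgeR adjusted p = 0.0566). Thinning every cell to 3000 UMIs ended the G2/M calls of Edar (-1.39, adjusted p = 0.0702) and Robo1 (-0.85, adjusted p = 0.19), and Robo1 was not called without mouse 1 (-1.37, adjusted p = 0.0113).

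Detection per cell was read against collagen-rich cells, assumed but not shown to lack the matrix genes, after thinning to 3000 UMIs. A Lef1 UMI was then found in 70.7% and 58.5% of members and in 11.5% and 16.3% of collagen-rich cells, and without thinning in 83.6% and 77.8% of members. For Robo1 the thinned shares were 46.0% and 50.2% in members and 36.2% and 47.1% in collagen-rich cells, where Hoxc13 was at 3.70% and 3.60%. Whether collagen-rich cells express Robo1 themselves was not tested, so its share there is not read as background. Edar was seen in 2.53% and 2.73% of thinned members and in 0.458% and 1.33% of collagen-rich cells. Median UMIs before thinning were 7508 and 8910 in collagen-rich cells, close to those of members. Lef1 is a gene of the rule, so its share in members was set in part by the choice of cells.

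Against G2/M matrix cells, members had higher levels of Kitl and of several IRS, HS and medulla genes, and lower levels of the cyclin Ccnd2 and of 6 of 15 ribosome biogenesis genes. Of 12218 genes outside the rule and the cycle lists, 606 were called higher (4.96%) and 609 lower (4.98%). With the mouse as a block, which pairs sums from the same animal, 1123 were called higher (9.19%) and 749 lower (6.13%), without members of mouse 2 the counts were 252 and 325, and with every cell thinned to 3000 UMIs they were 87 and 153. Kitl (chr10:100015630-100100416, plus strand) stood at 861 and 849 CPM in members and 143 and 231 CPM in G2/M cells, a log2 fold change of 2.17 (SE 0.22, edgeR adjusted p = 1.03e-05). Tchh was at 986 and 650 CPM against 154 and 128 CPM (log2 2.49, SE 0.32), and Foxq1 at 316 and 172 CPM against 53.9 and 38.6 CPM (log2 2.35, SE 0.35). Members of mouse 1 had the higher level of Tchh and of Foxq1. Cluster 6, rich in Krtap8-1, and cluster 4, rich in Tchh, also took a larger share of mouse 1, whose members hold more core cells.

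**Figure D3:**
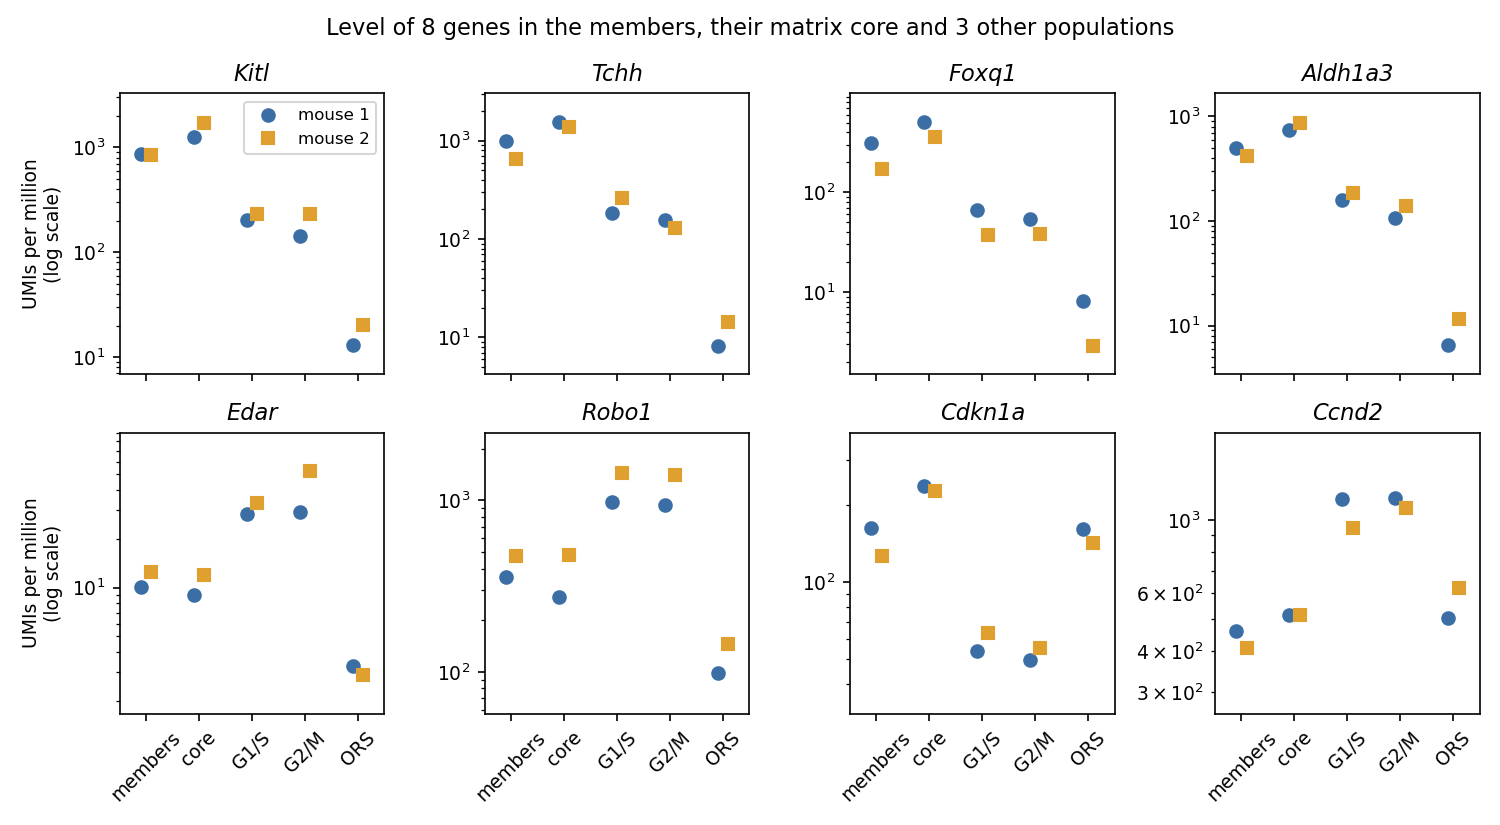
Level (CPM, log axis) of 8 genes in all members, the matrix core, G1/S matrix cells, G2/M matrix cells and ORS cells, with 1 point per mouse. Kitl, Tchh, Foxq1 and Aldh1a3 were higher in members than in all 3 comparison populations in both mice, and Edar and Robo1 were lower in members than in either cycling population.

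The differentiation lists are described by their counts, beside 4.96% of all genes called higher. Of 7 IRS genes tested, 3 were called higher (Padi3, Tgm3 and Tchh), with a median log2 fold change of 1.17 against 0.05 over all genes tested. Padi3, a peptidylarginine deiminase that modifies trichohyalin, was at 191 and 162 CPM against 28.5 and 44.2 CPM (log2 2.25, edgeR adjusted p = 5.39e-06). Of 10 HS genes, 4 were higher (S100a3, Dsg4, Crym and Krtap8-1; median 1.53), and of 6 medulla and companion layer genes 3 were higher (Krt75, Foxq1 and Krt6a; median 1.80). In these 3 lists edgeR and DESeq2 called 0 genes lower, and 1 (Gata3) was lower at an unadjusted p under 0.05. S100a3 was not called without mouse 1 (log2 1.74, adjusted p = 0.0136). The IRS factor Gata3, by contrast, was at 90.5 and 102 CPM against 150.1 and 170.5 CPM (log2 -0.78, adjusted p = 0.0386), and fell by 1.97 in the core (adjusted p = 3.83e-05). Of 21 matrix regulators 2 were higher (Kitl and Prdm1) and 1 lower (Mycn), with a median of 0.02, and in the core 5 of 20 were higher (Foxn1, Kitl, Ovol1, Bmp2 and Prdm1) and 2 lower (Shh and Tfap2b), with a median of 0.31, beside 3.17% and 5.73% of all genes there.

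The genes with the largest rise differed in their values in the core. Of the 10 selected by size, Csta1 (log2 3.57), Sct (3.12), B4galt6 (2.95) and Soat1 (2.92) also rose in the core, by 3.87, 3.62, 3.58 and 3.38. Lingo2, Inhba, Corin, Dcc and Unc5c rose by 2.71 to 3.06 over all members, but stood between 0.17 and 0.71 in the core and were not called there; Corin is of the papilla list that the core limits. The last of the 10, St6galnac5, rose by 2.67 and was not tested in the core. The 10 with the largest fall were the cohesion factor Esco2 (-5.12), the mitosis genes Prc1, Pbk, Ndc80 and Cep55 and the histones Hist1h1a, Hist1h1b, Hist1h2ae, Hist1h2ap and Hist1h3c. These move with the genes that split the populations and are no separate finding, and the near-identical histone genes may share reads.

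Genes that hold cells in or out of the cycle differed in both directions. Of 26 cyclin, inhibitor and MYC/MXD genes tested, 3 were called higher and 6 lower against G2/M cells, beside 4.96% and 4.98% of all genes. The CDK inhibitor Cdkn1a (p21) stood at 163 and 127 CPM in members and 49.8 and 55.5 CPM in G2/M cells (log2 1.43, edgeR adjusted p = 0.000289), yet at 162 and 142 CPM in ORS cells. Mxd4, an antagonist of MYC, was at 114 and 110 CPM against 24.7 and 30.9 CPM (log2 1.98, adjusted p = 6.85e-06). Of the others, Cdkn2b was higher, and the inhibitor Cdkn2c, the pocket protein Rbl1, Mxd3, Mycn and Cdk6 were lower. Cdkn2c stood at 10.1 and 6.79 CPM against 27.9 and 26.6 CPM (log2 -1.73, adjusted p = 0.000748). The D-type cyclin Ccnd2 was at 461 and 409 CPM in members against 1170 and 1093 CPM (log2 -1.42, adjusted p = 0.000928), close to its 505 and 624 CPM in ORS cells. Ccnd2 was not called without mouse 2 (-1.24, adjusted p = 0.0124) or after thinning (-0.68, adjusted p = 0.169). Of 15 ribosome biogenesis genes 6 were lower and 0 higher by edgeR or DESeq2 (0 at an unadjusted p under 0.05), among them nucleolin (Ncl), at 593 and 518 CPM against 1579 and 1462 CPM (adjusted p = 0.000215), a call lost after thinning (log2 -0.77, adjusted p = 0.1).

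Against G1/S matrix cells fewer genes were called. Of 12218 genes, 169 were higher (1.38%) and 196 lower (1.60%), and the block on the mouse gave 628 (5.14%) and 388 (3.18%). Without members of mouse 1 the counts were 123 and 105, and without those of mouse 2 they were 91 and 80. Thinning to 3000 UMIs gave 51 and 27, and DESeq2 302 and 234. Kitl was at 203 and 233 CPM in G1/S cells (log2 1.95, SE 0.22, edgeR adjusted p = 0.000115). Csta1 rose by 2.69, Sct by 2.05, Soat1 by 1.90 and Padi3 by 1.67 on the log2 scale. Tchh (1.86), Foxq1 (2.20), Aldh1a3 (1.39), Cdkn1a (1.29) and Mxd4 (1.15) were called too. These calls were lost without members of mouse 1, at log2 values of 1.49, 1.66, 1.23, 1.07 and 1.09. Thinning also ended the call of Mxd4 (1.67, edgeR adjusted p = 0.0258).

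The 10 genes with the largest rise against G1/S cells were Corin, Lingo2, Rspo2, Ncam2, Dcc, Sostdc1, Ptprz1, Thsd7a, St6galnac5 and Rspo3, of which Corin, Rspo2 and Rspo3 belong to the dermal papilla list. Corin rose by 3.66 over all members (adjusted p = 7.18e-05, edgeR with BH) and stood at 0.65 in the core (adjusted p = 0.576), whose definition limits papilla genes. The 10 with the largest fall were Slfn9, Lig1, Rpa2, Ncapg2, Syce2, Pclaf, Gmnn, Wdr76, Tipin and Atad5, most of them replication genes that follow the Mcm and Hells sum by which G1/S cells were chosen. Their log2 values ran from -3.04 to -2.35. St6galnac5 was not called without mouse 2 (2.95, adjusted p = 0.0143). By list, 3 of 7 IRS genes, 1 of 10 HS genes, 1 of 6 medulla and companion layer genes, 6 of 10 dermal papilla genes and 2 of 7 melanocyte genes were higher, with medians of 1.26, 1.29, 1.30, 2.69 and 1.58 against 0.01 over all genes tested, of which 1.38% were called higher. Of 17 ORS genes edgeR called 3 higher and 0 lower, and of 11 suprabasal genes 2 and 0. The melanocyte call of Dct was lost after thinning (0.90, edgeR adjusted p = 0.243) and without mouse 2 (1.47). That of Tyrp1 was lost without either mouse (1.70 and 1.69). DESeq2 called 3 of the HS genes. S100a3 (1.94, adjusted p = 0.0167) was called by DESeq2 (adjusted p = 0.00291), with the block (adjusted p = 3.03e-10) and in the core (adjusted p = 0.00484). Without members of mouse 1 the log2 value of S100a3 was 1.31. Without members of mouse 1 the calls of Tchh (1.49, adjusted p = 0.0159), Tgm3 (1.02, adjusted p = 0.0515), Krtap8-1 (1.18, adjusted p = 0.0423) and Foxq1 (1.66, adjusted p = 0.0106) were lost, and that of Padi3 was kept (1.52, adjusted p = 0.00269).

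Markers of other cell types moved with these contrasts, and 7 of 10 dermal papilla genes and 5 of 7 melanocyte genes tested were called higher than in G2/M cells, beside 4.96% of all genes. The dermal papilla list, with all 12 genes seen and Wif1 the most abundant, summed to 693 and 744 CPM in members, 127 and 213 CPM in G2/M cells and 75.2 and 109 CPM in the core. The melanocyte list of 7 genes, again all seen and led by Dct, summed to 1369 and 1616 CPM in members, 380 and 458 CPM in G2/M cells and 237 and 236 CPM in the core, although the sort was for CD117- cells. ORS genes summed to 3851 and 5059 CPM against 1917 and 2224 CPM, and 1778 and 1660 CPM in the core. Fibroblast genes stood at 817 and 1018 CPM against 575 and 690 CPM, and leukocyte genes at 43.0 and 93.8 CPM against 42.2 and 107 CPM. Schwann cell genes were at 20.6 and 37.7 CPM against 7.68 and 11.5 CPM, endothelial genes at 10.3 and 7.13 CPM against 7.64 and 13.6 CPM, and suprabasal genes, with Flg at 0, at 574 and 581 CPM against 314 and 461 CPM. Members therefore held more papilla, melanocyte and ORS transcripts than G2/M cells in both mice. The core's definition limits the genes of the first 2 lists, so its low values for these follow from that choice. G2/M cells under the same limits held 75.6 and 108 CPM of papilla genes and 216 and 238 CPM of melanocyte genes. Their ORS genes summed to 1656 and 1526 CPM.

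Within the core, applied to all 3 matrix populations, 343 genes were higher than in G2/M cells (3.17%) and 621 lower (5.73%). Outside the papilla and melanocyte lists, 206 of the 594 higher calls made over all members were also called in the core, and 505 of the 609 lower calls. Of the genes called higher over all members, 489 could be tested in the core, and the rest could not be called there. Kitl (2.52), Tchh (2.83), Foxq1 (2.73), Padi3 (2.62) and Krt75 (2.56) had larger log2 values in the core than over all members, where Krt75 stood at 1.89. Members were shallower than G2/M cells, so the core's limit of 10 UMIs asks for a higher relative level of the matrix genes in them. Whether this has a part in the larger values was not tested. Of 17 ORS genes 9 were higher over all members and 1 was higher and 2 were lower in the core; Sox9 went from 2.11 to 0.55, Krt14 from 1.58 to 0.35 and Krt15 from 1.41 to -0.10. Krt15 was also not called without either mouse (1.55 without mouse 1 and 1.33 without mouse 2), and thinning ended the calls of Sox9 (1.92, adjusted p = 0.0103), Krt14 (0.56, adjusted p = 0.42) and Krt15 (1.11, adjusted p = 0.0409) over all members. Shh, at 11.97 and 10.7 CPM in members and 18.6 and 26.3 CPM in G2/M cells, fell in the core (log2 -1.5, edgeR adjusted p = 0.00517) and was not called over all members (log2 -1.02, adjusted p = 0.0153). Against G1/S cells the core gave 87 higher (0.803%) and 178 lower calls (1.64%).

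**Figure D4:**
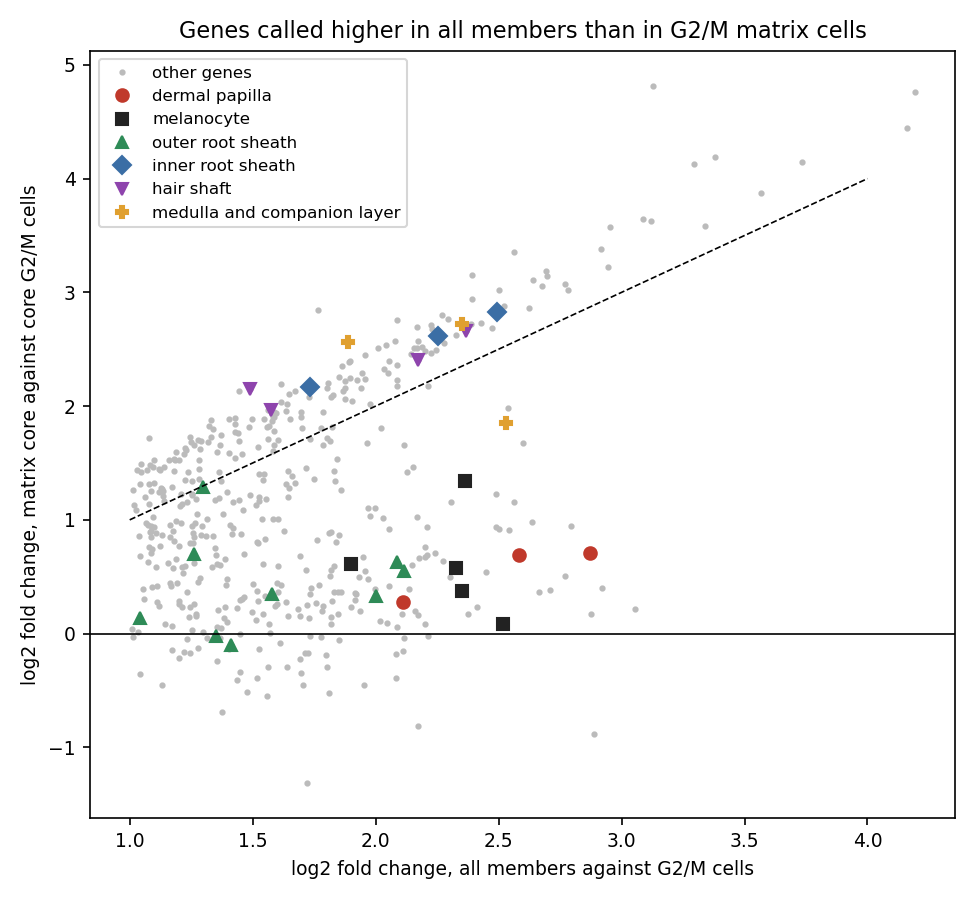
Log2 fold change against G2/M matrix cells over all members (x axis) and in the matrix core (y axis) for the 489 genes called higher over all members that could be tested in the core, with the dashed line marking equal values. In the core 247 of them stayed above 1 and 47 fell below 0.

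Retinoid genes were not uniformly higher. Of 16 tested against G2/M cells, edgeR called 3 higher (Aldh1a3, Rarb and Dhrs9), where 4.96% of all genes tested were called higher, and 0 lower, DESeq2 2 and 0, and 9 were higher and 0 lower at an unadjusted p under 0.05. Aldh1a3 stood at 497 and 421 CPM in members against 107 and 139 CPM (log2 1.87, SE 0.24, edgeR adjusted p = 7.27e-05), and the retinoic acid receptor Rarb, itself a retinoic acid target, at 53.1 and 82.05 CPM against 8.76 and 14.0 CPM (log2 2.54). In cluster 13, which carried the melanocyte genes, Rarb stood at 1704 CPM, against 28.3 CPM in the other members. In the core Rarb had a log2 value of 1.99 against G2/M cells (adjusted p = 0.00645) and of 1.25 against G1/S cells (adjusted p = 0.251), where it stood at 2.48 over all members, and Dhrs9 was not called (0.69, adjusted p = 0.299). The retinol transporter Stra6 was at 79.8 and 46.5 CPM against 34.5 and 23.3 CPM, and was called in the core (log2 1.49, adjusted p = 0.00069) but not over all members (log2 1.08, adjusted p = 0.0313; 6.48e-07 with the block). The retinol dehydrogenase Rdh10 was likewise called in the core (log2 1.43, adjusted p = 0.000246) and not over all members (log2 0.93). Crabp1, a retinoic acid binding protein, was at 81.7 and 38.6 CPM over all members but fell by 1.67 in the core (adjusted p = 0.00157). It stood at 950 CPM in the papilla-like cluster 9, against 11.5 CPM in the other members, and the core leaves out papilla-rich cells. In cluster 4, Aldh1a3 (1416 and 1854 CPM) and Stra6 (201 and 130 CPM) were present together.

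Signalling genes differed in both directions between members and G2/M cells, to be read against 4.96% of all genes called higher and 4.98% lower over all members, and 3.17% and 5.73% in the core. Of 37 WNT genes 6 were higher against G2/M cells (Wnt3, Fzd3, Dkk3, Sfrp1, Sostdc1 and Tcf7l1) and 2 lower (Kremen2 and Fzd10), and in the core Wnt3 and Fzd3 were higher and Lgr6 and Fzd10 lower of 35. The ligand Wnt3 was at 48.1 and 42.5 CPM in members against 9.98 and 12.8 CPM in G2/M cells (log2 1.96, edgeR adjusted p = 0.00106). Fzd3 was not called without mouse 2 (1.28, adjusted p = 0.0466), nor Fzd10 after thinning (-0.15, adjusted p = 0.886). Of 20 BMP genes 3 were higher (Id4, Bmp6 and Bmpr1b), and in the core Bambi, Smad7 and the ligand Bmp2 were higher and Fst and Bmp4 lower of 18. Gli3 rose by 1.56 (adjusted p = 0.00305), a call lost without mouse 2 (1.56, adjusted p = 0.0124), while the hedgehog target Gli1 fell by 1.10 in the core (adjusted p = 0.0052). Of 11 Notch and 9 FGF genes, 0 were called either way against G2/M cells by edgeR or DESeq2, and at an unadjusted p under 0.05 1 Notch gene was higher, 1 lower, and 4 FGF genes were higher. Of 8 ectodysplasin pathway genes Edar was the one called, and in the core Edar and its adaptor Edaradd were lower.

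Matrix genes outside the rule were also compared with ORS cells. Of 12211 genes, 291 were higher (2.38%) and 436 lower (3.57%), with 510 (4.18%) and 660 (5.40%) under the block, 466 (4.30%) and 960 (8.87%) in the core, and 231 lower without members of mouse 1. ORS cells were few, with 94 in mouse 1 and 40 in mouse 2. Kitl was at 13.1 and 20.2 CPM there (log2 5.59, SE 0.32, edgeR adjusted p = 6.83e-07), and the matrix regulators Trps1 and Runx1 rose by 2.38 and 1.90. Of 21 matrix regulators 7 were higher and 2 lower (Ctsc and Egr2), with a median of 2.27. Cux1 rose by 2.40 and Robo1 by 1.64 against ORS cells. Robo1 was called lower than in both cycling matrix populations, and Cux1 was called lower than in neither. The call of Robo1 against ORS cells was lost without mouse 2 (1.46).

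WNT genes differed from the ORS in both directions. Of 36, 5 were higher and 4 lower, and in the core 8 were higher and 9 lower of 34, beside 2.38% of all genes called higher and 3.57% lower over all members, and 4.30% and 8.87% in the core. The feedback gene Axin2 was at 43.4 and 35.7 CPM against 6.53 and 5.78 CPM (log2 2.49, edgeR adjusted p = 0.00254) and the ubiquitin ligases Rnf43 and Znrf3 rose by 1.46 and 1.56. Of 20 BMP genes edgeR and DESeq2 called 5 higher and 0 lower, with 6 and 3 at an unadjusted p under 0.05, and in the core 6 of 18 were higher and 3 lower (Id4, Fst and Bmp6). Among those higher over all members, Id1, a direct BMP target, was at 340 and 243 CPM against 21.2 and 28.9 CPM (log2 3.42, adjusted p = 0.000369), and Bambi and Smad7, which restrain the pathway, rose by 4.65 and 2.89. Of 11 hedgehog genes 5 were higher and 1 lower, with the receptor and target Ptch1 at 141 and 155 CPM against 16.3 and 17.3 CPM (log2 2.97). Hhip, among these 5, is also of the dermal papilla list. Markers of other cell types were higher than in the ORS too. Of 10 dermal papilla genes 7 were higher (median 3.38) and of 7 melanocyte genes 5 (median 3.89), with 0 lower in either list. Axin2 was not called without mouse 1 (2.31, adjusted p = 0.01).

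The 10 largest rises against the ORS were in Krtap15, Rspo3, St6galnac5, Krt23, Tchh, Gpnmb, Krtap8-1, Fabp4, Stra6 and Aldh1a3. Krtap15, the papilla gene Rspo3 and St6galnac5 had no UMI in ORS cells, and against a floor of 3 UMIs over the group they were at least 28.9-fold, at least 26.1-fold and at least 16.1-fold higher. Gpnmb, a glycoprotein of pigment cells and other cells, rose by 6.04 (edgeR adjusted p = 1.48e-06) and Fabp4 by 5.78. The 10 largest falls were in Fcgbp, Rnf223, Ndufa4l2, Serpinb2, Sbsn, Pthlh, Krt6a, Capns2, Lrat and Ang. Sbsn, a suprabasal gene, was at 93.5 and 96.8 CPM against 1289 and 1350 CPM (log2 -3.95), and Lrat, which stores retinol as esters, at 6.73 and 2.72 CPM against 44.1 and 63.6 CPM (log2 -3.64). Of 19 adhesion genes edgeR called 7 lower (Jup, Col17a1, Pkp1, Lamb3, Pkp3, Dsg3 and Dsc3) and 0 higher, beside 3.57% and 2.38% of all genes, DESeq2 the same numbers, with 11 lower and 3 higher at an unadjusted p under 0.05.

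The same rule was applied to the cultured HFSCs. Of 262 barcodes of mouse 1 and 94 of mouse 2, 14 (5.34%) and 3 (3.19%) met it, and 16 of them carried an assigned hashtag, the antibody barcode that marks a culture condition. With BMP added they were 11 of 122 cells of mouse 1 (9.02%, exact 95% binomial interval 4.59% to 15.6%) and 0 of 14 of mouse 2, which allows a share of up to 21.4% by a floor of 3 counts and 23.2% by the exact interval. With R-spondin and BMP (Rspo+BMP) they were 1 of 102 and 1 of 35, and with an RAR inhibitor added to these 1 of 7 and 2 of 25. Lef1 was nearly missing from the cultures, at 3.99 and 4.54 CPM over all barcodes, and Kitl was at 10.97 and 23.4 CPM, while Cux1 reached 734 and 867 CPM. Cultured cells were deeper, with median UMIs of 29322.5 and 23958.5, so a sum of 3 UMIs is reached at a lower relative level there, and no comparison with the skin cells was tested.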

How the data were processed

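Back skin of 2 wild-type mice was sequenced as 10x Genomics 3' libraries, and CD34+ HFSC cultures of the same mice as 2 more. The authors deposited UMI counts per gene and called cell as whole numbers without normalization (mm10; Cell Ranger 7.0.0 per the file headers, 7.0.1 in the submitters' processing notes); removal of ambient RNA and doublets was not part of these values. Total UMIs were 145318618 and 167258677 over 16521 and 16068 barcodes. Cells with at least 500 genes, at least 1000 UMIs and under 10% mitochondrial UMIs were kept. Krt85, a gene of the rule, was not analysed here. The members, gene lists and tests were chosen with earlier results of these data known.

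Counts were summed per mouse and population into 12 sums (6 populations, IRS and HS cells included, with 6 residual degrees of freedom) and fitted with edgeR 4.0.16 in R 4.3.3 (TMM, filterByExpr, quasi-likelihood test, Benjamini-Hochberg adjustment over 12293 genes). Genes of the rule and of 2 cycle lists were left out of counts of calls, for the ORS also its gating genes, and for the core the dermal papilla and melanocyte lists. Sums of the same mouse come from the same animal, so the mouse numbers pair them: deviations correlated at r = 0.469 between members and G1/S cells, 0.629 with G2/M cells and 0.158 with ORS cells. The fit was tested on simulated counts at these depths. Members were clustered with scanpy 1.11.5 (2000 variable genes, 20 components, 15 neighbours, resolution 0.6, seed 11), and a cluster's leading genes are its 10 by fold. Doublets were called but kept. Genes named were the label markers, rule genes, list genes that passed the call or matter for layer fates, and in each comparison the top 10 calls by fold on either side, if the higher population averaged at least 50 CPM and the mice did not overlap; Shh, Wnt3, Gli1 and other list genes below the call are given as values. Gene positions come from GENCODE (GRCm38). The alternatives tried were a replicate block, another threshold, DESeq2 1.42.0, keeping all low-count genes, stricter cycle limits, thinned cells, no doublets, leaving out the members of each mouse, and the matrix core.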

Additional observations from a re-analysis of the deposited data

How the results depend on the processing

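The matrix core, alone and with the block, was chosen after seeing the data. Counts of genes higher and lower than in G1/S cells (169 and 196) moved to 498 and 335 with no filter on low counts, 628 and 388 with the replicate block, 540 and 490 at an adjusted p under 0.05 with no limit on fold, and 51 and 27 after thinning. DESeq2 gave 302 higher, the core 87 higher, and the core with the block 318 lower. Leaving out the members of 1 mouse gave 91 to 123 higher and 80 to 105 lower. Against G2/M cells (606 and 609), no filter gave 910 higher, the block 1123 higher, the looser threshold 1423 and 1242, thinning 87 and 153, the core 343 higher, and leaving out 1 mouse 252 to 506 higher and 325 to 443 lower. Against ORS cells (291 and 436), no filter gave 527 higher, the block 510 and 660, the looser threshold 597 and 768, the core 466 and 960, the core with the block 674 and 1174, and leaving out 1 mouse 212 to 213 higher and 231 to 307 lower. Of 1200 members, 509 held no UMI of either cycle sum and 549 formed the core. Of 172 gene values given as log2 fold changes that had a value in the core, the core ended 28 calls and added 15 with the sign kept. Another 4 values, called over all members or in the core, changed sign. Of 179 gene values given as log2 fold changes, the block ended 0 calls and added 15, leaving out mouse 1 ended 26, leaving out mouse 2 ended 20, and thinning, which also re-applies the rule to fewer UMIs, ended 38 of 163. In the core, signs turned for Crabp1 (-1.67 against G2/M cells, -1.69 with the block, and -1.13 and -1.14 against G1/S cells), Krt15 (-0.10 with and without the block against G2/M cells, -0.31 and -0.32 against G1/S cells), Lingo2 (-0.26, and -0.25 with the block) and Ncam2 (-0.68 both ways) against G1/S cells, and Cdkn1a (0.46, and 0.45 with the block, from -0.23) against ORS cells; the cause was not tested. The ORS sums held 612287 and 345896 UMIs against 5347664 and 5886941 in members, so scarce genes were less well measured there.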
